A study of Mus musculus with 12 samples.

Results

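The genes described here encode Toll-like receptors and the proteins that carry lipopolysaccharide to them. They are the 10 genes Cd14, Lbp, Ly96, Tlr1, Tlr2, Tlr4, Tlr5, Tlr7, Tlr8 and Tlr13, found by symbol among the 25676 genes of the expression table. All 10 were in the table, and 7 of them encode Toll-like receptors. Their levels were measured by RNA sequencing in whole livers of 12 C57BL/6 mice aged 3 to 4 months, each giving 1 library. There were 4 groups of 3 mice: WT males, WT females, KO males and KO females. The KO mice carried the genotype Foxa3-Cre YAP1 KO, and the labels call the controls WT without saying whether they carried Cre or an unrecombined allele. Foxa3 directs Cre to the foregut endoderm, from which hepatocytes and bile duct cells arise, so the macrophages and endothelial cells of the liver lie outside the lineages in which Cre is expected to act. The mice are separate animals, and the labels give no pairing or litter.

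Toll-like receptors are membrane proteins that bind conserved parts of microbes and signal through adaptors such as MYD88 to NF-kB and interferon regulatory factors. Lipopolysaccharide of Gram-negative bacteria, which reaches the liver in portal blood from the gut, is extracted by LBP, handed to CD14 and from there to MD-2 (encoded by Ly96) bound to TLR4. In liver, LBP is secreted mainly by hepatocytes, whereas Kupffer cells, the resident macrophages, are a main site of CD14 and of most Toll-like receptors. Some receptors sit at the cell surface (TLR1, TLR2, TLR4, TLR5), and others sense nucleic acids in endosomes (TLR7, TLR8, TLR13).

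Values are TPM, a transcript's share of its library scaled to a fixed sum and corrected for gene length, so levels can be compared between genes. Differences were tested with limma on log2(TPM + 1), with sex as a covariate. The test covered the 12278 genes whose mean reached 0.5 TPM, and calls were made at a Benjamini-Hochberg adjusted p under 0.05 over all of them. The libraries held 19446403 to 27551601 reads on these genes, as recovered from the steps in the values. Yap1, the targeted gene, stood at 0.994 to 3.11 TPM in the 6 KO livers and at 23.0 to 34.9 TPM in the 6 WT livers, a fall by 3.36 on the log2(TPM + 1) scale (limma, adjusted p = 4.95e-09), and by 3.73 after the rescaling described next (adjusted p = 9.15e-09). The median tested gene was 0.35 higher in KO on the deposited scale. Therefore the genotype differences over both sexes are given as deposited and after median-of-ratios rescaling, which sets the library sizes by the typical gene and brings that median to -0.03. Differences are KO minus WT unless another direction is named. WT male replicate 2 had the highest Lbp and Tlr2 and the lowest Ly96 of the 6 WT livers, so the genotype differences of these genes over both sexes are also given without it.

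Cd14, the membrane-anchored or soluble co-receptor that passes lipopolysaccharide to the TLR4 complex, showed the largest difference of the 10 genes on every scale tried. It stood at 5.06, 2.58 and 1.07 TPM in the WT males and at 3.66, 2.07 and 3.72 TPM in the WT females. In KO it stood at 149.6, 138.8 and 144.9 TPM in the males and at 157.5, 93.0 and 76.4 TPM in the females. Every KO liver lay above every WT liver, as in 28.7% of tested genes, and by a wide margin. The KO males lay close together while the KO females spread over a wider range. The difference was 5.02 (SE 0.254; limma, adjusted p = 5.37e-09), and 4.62 after rescaling (adjusted p = 2.64e-08). Counted in reads, 23 to 91 reads per WT library stood against 1339 to 2971 per KO library, and limma-voom on these reads gave a 32.8-fold difference.

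Lbp, the secreted protein that loads lipopolysaccharide onto CD14, was the most abundant of the 10 genes in WT and had a lower mean than Cd14 in KO. Its level was 47.3, 78.2 and 33.0 TPM in the WT males and 50.2, 39.9 and 59.1 TPM in the WT females, against 96.8, 109.2 and 78.1 TPM in the KO males and 89.8, 83.2 and 105.6 TPM in the KO females. The KO values were high in both sexes, and the genotypes overlapped only through WT male replicate 2 and KO male replicate 3. As deposited the difference was 0.90 (SE 0.180; limma, adjusted p = 9.14e-04), and without WT male replicate 2 it was 1.04 (adjusted p = 8.58e-05). After rescaling it was 0.45 and did not pass the threshold (adjusted p = 0.115), so the call for Lbp rests on the scale.

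Ly96, which encodes the lipid-binding partner MD-2, did not pass the threshold. It stood at 7.36, 2.45 and 6.06 TPM in the WT males, 6.60, 5.22 and 7.53 TPM in the WT females, 11.4, 9.83 and 9.62 TPM in the KO males and 14.9, 5.58 and 5.48 TPM in the KO females. As deposited the KO males lay above the WT males, as in 50.8% of tested genes, and 2 of the 3 KO females lay within the WT range. After rescaling the genotypes overlapped in each sex. The difference was 0.59 (SE 0.263; limma, adjusted p = 0.0707), 0.38 without WT male replicate 2 (adjusted p = 0.152) and 0.20 after rescaling (adjusted p = 0.536). Without either KO female replicate 2 or KO female replicate 3 it passed, at 0.72 (adjusted p = 0.0320) and 0.73 (adjusted p = 0.0339).

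Tlr4, the signalling receptor of the complex, was among the least abundant of the 10 genes in both genotypes. It stood at 0.233, 0.432 and 0.196 TPM in the WT males and 0.461, 0.259 and 0.455 TPM in the WT females, against 0.739, 0.607 and 1.09 TPM in the KO males and 1.21, 0.721 and 0.942 TPM in the KO females. All KO values exceeded all WT values as deposited, as in 28.7% of tested genes, by a small margin, and the genotypes overlapped after rescaling. Tlr4 reached the minimum through the KO livers, with a WT mean of 0.339 TPM. Tlr4 rose by 0.49 (SE 0.112; limma, adjusted p = 0.00244), or 0.32 after rescaling (adjusted p = 0.0261). On the recovered reads, 14 to 35 per WT library and 31 to 76 per KO library, the difference was 1.96-fold (limma-voom, adjusted p = 0.0139).

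Cd14 therefore rose by more than Ly96, Tlr4 and Lbp, which ratios within a library show free of library scaling. The ratio of Cd14 to Ly96 was 0.177 to 1.05 in the WT livers and 10.6 to 16.7 in the KO livers. The ratio of Cd14 to Tlr4 was 5.47 to 21.7 in WT and 81.1 to 228 in KO. Lbp exceeded Cd14 by 9.36 to 30.7 times in WT, and in KO this ratio was 0.539 to 1.38. These 3 ratios did not overlap between genotypes, but each contains Cd14, so they restate its rise. Ly96 over Tlr4, without Cd14, did overlap, at 5.67 to 31.5 in WT and 5.82 to 16.2 in KO. The share of gene pairs without overlap on such ratios was not computed.

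**Figure D1:**
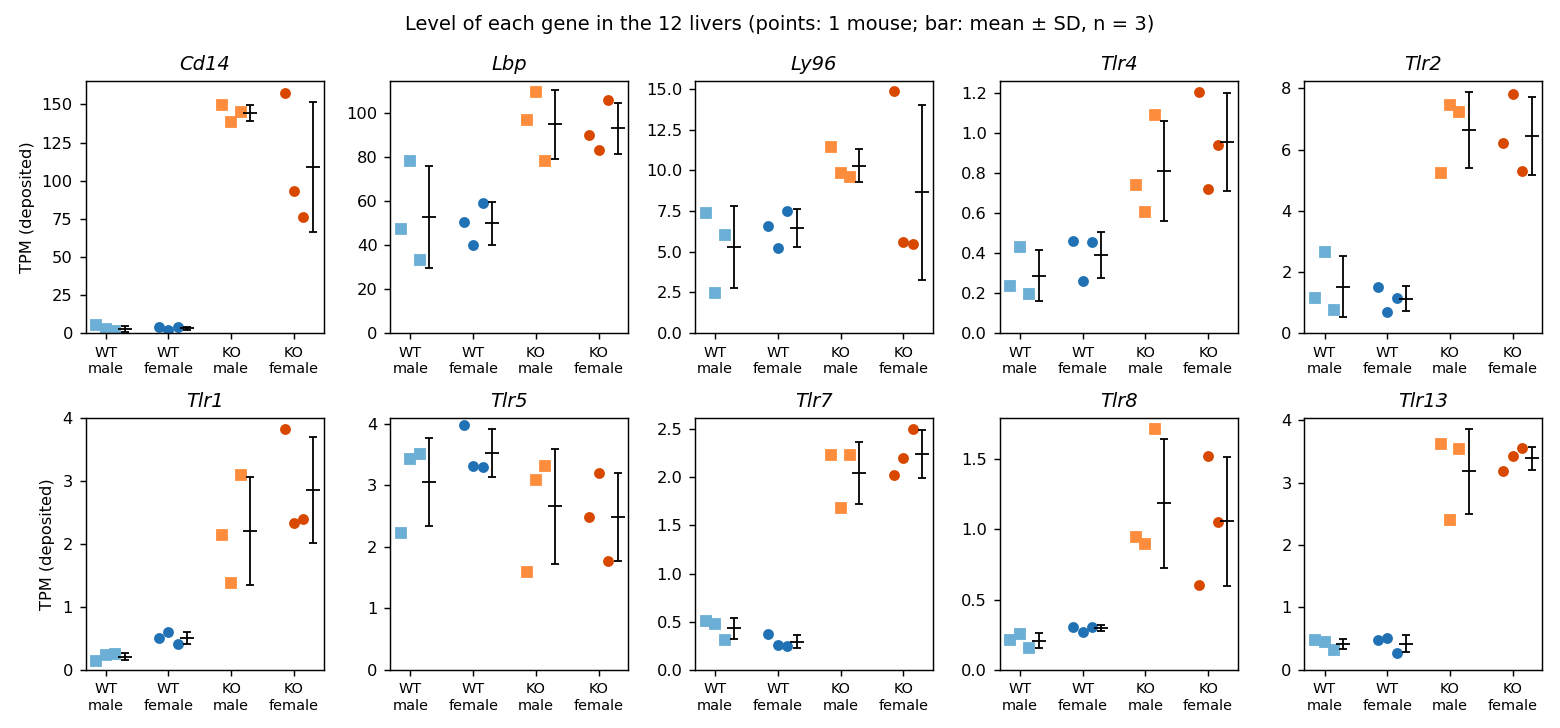
Deposited TPM (vertical axis, linear, starting at 0 in each panel) of the 10 genes in the 4 groups; each point is 1 mouse and the bars give mean ± SD (n = 3). Cd14 sits between 76.4 and 157.5 TPM in KO and at or below 5.06 TPM in WT, whereas Lbp, Ly96 and Tlr5 overlap between the genotypes.

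Start-site sequences were matched for 5 of the 10 genes, and all 5 are shown, 4 of receptors that rose and that of Tlr5, which did not. They are RefSeq sequence (GRCm38.p6) of the bases before the start site, stopped at the first annotated exon. They lie at chr3:83841768-83841858 (minus strand) for Tlr2, chr5:64933564-64933808 (minus strand) for Tlr1, chrX:106143025-106143203 (plus strand) for Tlr13, chrX:167264330-167264579 (minus strand) for Tlr8 and chr1:182954538-182954787 (plus strand) for Tlr5. Each runs 5′ to 3′ on the strand of its gene. Capitals mark NF-kB motif matches in Tlr2, a pair of overlapping matches, and the PU.1 motif GAGGAAG in Tlr1 and Tlr13; Tlr8 holds neither, and Tlr5 holds none of the motifs searched. PU.1 is a transcription factor of the myeloid lineage, and NF-kB is a factor activated by Toll-like receptors.
Tlr2: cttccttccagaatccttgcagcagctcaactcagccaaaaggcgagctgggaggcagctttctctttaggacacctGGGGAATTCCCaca
Tlr1: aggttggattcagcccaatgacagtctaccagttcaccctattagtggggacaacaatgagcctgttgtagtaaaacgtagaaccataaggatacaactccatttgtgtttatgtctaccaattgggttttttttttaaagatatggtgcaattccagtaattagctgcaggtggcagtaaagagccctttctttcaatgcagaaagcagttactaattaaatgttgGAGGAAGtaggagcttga
Tlr13: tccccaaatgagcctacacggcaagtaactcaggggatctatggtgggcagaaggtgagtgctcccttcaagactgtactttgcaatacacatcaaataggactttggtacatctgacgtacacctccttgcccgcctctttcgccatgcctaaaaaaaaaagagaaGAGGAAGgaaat
Tlr8: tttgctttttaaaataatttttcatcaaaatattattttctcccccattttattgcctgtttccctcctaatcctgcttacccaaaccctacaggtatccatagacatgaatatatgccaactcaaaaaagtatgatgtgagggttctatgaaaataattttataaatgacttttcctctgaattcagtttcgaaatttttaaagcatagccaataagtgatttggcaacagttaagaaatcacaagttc
Tlr5: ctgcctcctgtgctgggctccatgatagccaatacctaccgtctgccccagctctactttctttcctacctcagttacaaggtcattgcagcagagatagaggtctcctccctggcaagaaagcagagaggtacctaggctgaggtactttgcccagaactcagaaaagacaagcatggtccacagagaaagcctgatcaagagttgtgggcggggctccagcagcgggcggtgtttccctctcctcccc
Of 32851 RefSeq windows of the same 300 bases, 4.51% held an NF-kB match on either strand and 13.6% held GAGGAAG. The other motifs searched were C/EBP (TTNNGNAA, in 40.7% of windows), STAT (TTCNNNGAA, 8.3%), AP-1 (TGANTCA, 7.81%) and TEAD (GGAATG, 14.7%), and the C/EBP and STAT patterns can overlap. The NF-kB matches of Tlr2 began 173 and 172 bases before its start site, with another at 8 bases in the part not shown. The PU.1 matches began 23 bases before the start of Tlr1 and 83 bases before that of Tlr13. C/EBP matches lay 245 bases before the start of Tlr2, at the start site of Tlr13 in the part not shown, and at 5 places in the window of Tlr8, which also held 1 STAT match. A second RefSeq start of Tlr1, not shown, held a STAT match. So receptors that rose differed among themselves in the motifs they held. No window of these genes held an AP-1 or TEAD match. A match describes letters in the window, and binding was not measured.

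Tlr2, the surface receptor for bacterial lipoproteins, rose in KO. Its levels were 1.15, 2.65 and 0.762 TPM in the WT males, 1.51, 0.688 and 1.15 TPM in the WT females, 5.22, 7.46 and 7.23 TPM in the KO males and 6.21, 7.81 and 5.28 TPM in the KO females. Every KO value lay above the WT range, as in 28.7% of tested genes, and the top of that range was again WT male replicate 2. The rise was 1.74 (SE 0.181; limma, adjusted p = 4.43e-06), 1.40 after rescaling (adjusted p = 1.35e-04) and 1.88 without that library (adjusted p = 9.21e-07). In reads it was 3.94-fold.

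Tlr1, the partner with which TLR2 binds triacylated lipopeptides, also rose. It stood at 0.146, 0.235 and 0.245 TPM in the WT males, 0.497, 0.605 and 0.410 TPM in the WT females, 2.15, 1.37 and 3.09 TPM in the KO males and 3.82, 2.33 and 2.40 TPM in the KO females. The WT males were lowest, the WT females came next, and all KO livers lay higher than all WT livers, as in 28.7% of tested genes. Tlr1 rose by 1.35 (SE 0.142; limma, adjusted p = 4.83e-06), by 1.14 after rescaling (adjusted p = 9.11e-06) and 5.11-fold in reads. These values rest on only 5 to 20 Tlr1 reads per WT library, against 40 to 137 per KO library. The neighbour of Tlr1, Tlr6, which encodes the other partner of TLR2, lies 18467 bp away on chromosome 5. Tlr6 was 0.0489 to 0.677 TPM in WT and 0.546 to 1.63 TPM in KO, a rise of 0.51 (limma, adjusted p = 0.00313; 0.37 and adjusted p = 0.0167 after rescaling).

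Tlr5, the receptor for bacterial flagellin, was the exception among the 7 receptors. It stood at 2.23, 3.43 and 3.52 TPM in the WT males, 3.98, 3.32 and 3.30 TPM in the WT females, 1.59, 3.09 and 3.31 TPM in the KO males and 2.49, 3.19 and 1.76 TPM in the KO females. As deposited the genotypes overlapped in males, and in females the 3 KO values lay below the 3 WT values, as in 7.88% of tested genes. After rescaling the KO values lay below the WT values in each sex, as in 17.3% of tested genes in males and 21.8% in females. As deposited the difference was -0.28 (SE 0.160; limma, adjusted p = 0.148). After rescaling, Tlr5 fell by 0.62 (adjusted p = 0.00510), and in reads KO stood at 0.554 times WT (limma-voom, adjusted p = 0.00458). The call for Tlr5 therefore depends on the scale, and the direction did not.

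The endosomal receptors Tlr7, Tlr8 and Tlr13 were each below 0.55 TPM in every WT liver and rose in KO. Tlr13, a sensor of bacterial ribosomal RNA, stood at 0.472, 0.441 and 0.320 TPM in the WT males, 0.478, 0.511 and 0.262 TPM in the WT females, 3.61, 2.40 and 3.53 TPM in the KO males and 3.19, 3.42 and 3.55 TPM in the KO females. The genotypes lay far apart, with every KO liver above every WT liver, as in 28.7% of tested genes. There were 15 to 22 Tlr13 reads per WT library and 91 to 154 per KO library. Its rise was 1.60 (SE 0.110; limma, adjusted p = 1.06e-07), 1.35 after rescaling (adjusted p = 9.55e-07) and 5.87-fold in reads.

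Tlr7, a sensor of single-stranded RNA, ranged from 0.251 to 0.506 TPM in WT (median 0.338) and from 1.68 to 2.51 TPM in KO (median 2.21). Tlr8, its neighbour on the X chromosome with 40599 bp between them, ranged from 0.154 to 0.307 TPM in WT (median 0.265) and from 0.601 to 1.72 TPM in KO (median 1). For both genes every KO liver exceeded every WT liver, as in 28.7% of tested genes, and did so after rescaling, as in 11.0%. Both reached the minimum through the KO livers, with WT means of 0.361 TPM for Tlr7 and 0.251 TPM for Tlr8. The KO livers were more alike in Tlr7 than in Tlr8. Tlr7 rose by 1.21 (SE 0.105; limma, adjusted p = 9.44e-07), by 0.98 after rescaling (adjusted p = 1.39e-05) and 4.27-fold in reads. Tlr8 rose by 0.74 (SE 0.133; limma, adjusted p = 4.27e-04), by 0.58 after rescaling (adjusted p = 0.00225) and 2.96-fold in reads, with only 7 to 15 reads per WT library.

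Across the 10 genes, 8 were higher and 0 lower in KO as deposited, where 50.1% of all tested genes were higher and 4.82% lower. After rescaling 7 were higher and 1 lower, against 21.3% and 18.0% of all tested genes, and the recovered reads gave the same counts against 20.9% and 18.5%. The median difference over the 10 genes was 1.05 against 0.35 for all tested genes, and 0.78 against -0.03 after rescaling. In 7 of the 10 every KO value lay above every WT value, as in 28.7% of tested genes, and after rescaling in 6 of the 10, as in 11.0%. Tlr1, Tlr4, Tlr7, Tlr8 and Tlr13 had a WT mean under 0.5 TPM and reached the minimum through the KO livers, so these counts describe the genes and support no test over them. In the authors' deposited table, the log2 fold changes ran from 4.82 for Cd14 to -0.82 for Tlr5, with 0.19 for Lbp (FDR 0.65), 0.44 for Ly96 (FDR 0.41) and 0.98 for Tlr4 (FDR 0.06).

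**Figure D2:**
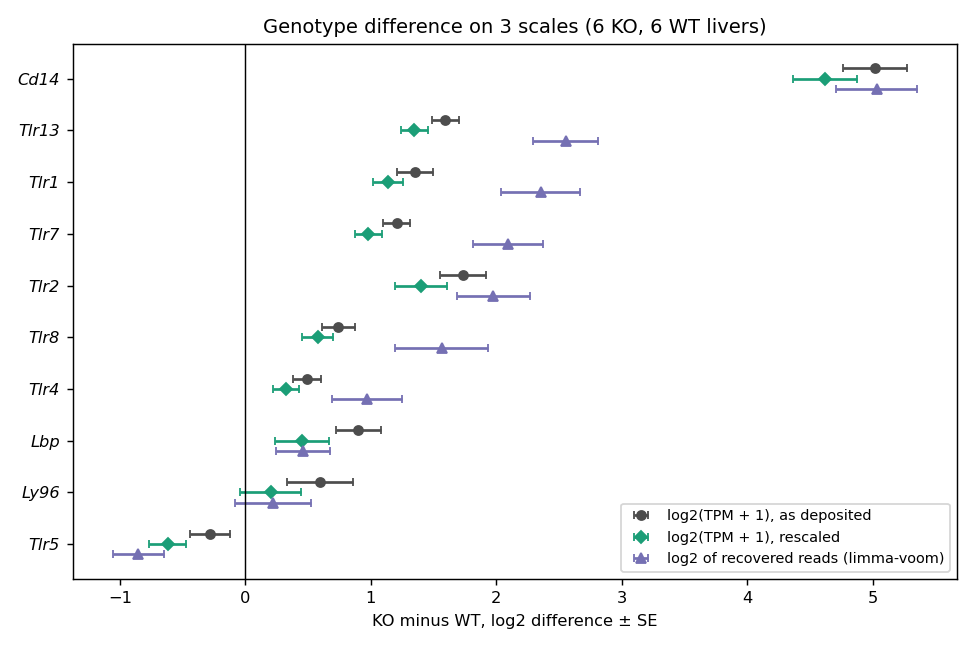
KO minus WT differences ± SE of the 10 genes (horizontal axis, log2) on 3 scales: log2(TPM + 1) as deposited, the same after rescaling, and recovered reads; 6 KO and 6 WT livers. Cd14 lies near 5 on each scale, the low receptors such as Tlr13 and Tlr1 lie further right in reads than on the log2(TPM + 1) scale, and Tlr5 lies left of 0 on each.

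The order of levels changed between genotypes. In WT the means ran from Lbp at 51.3 TPM through Ly96 at 5.87, Tlr5 at 3.30, Cd14 at 3.03 and Tlr2 at 1.32 TPM to 5 receptors between 0.251 and 0.414 TPM (n = 6 each). Neighbours from Ly96 to Tlr2 overlapped in their ranges, as did those 5 receptors. In KO, Cd14 had the highest mean at 127 TPM, but its range overlapped that of Lbp at 93.8 TPM, and in KO female replicate 3 Lbp stood above Cd14. Ly96 at 9.47 and Tlr2 at 6.54 TPM came next, also with overlapping ranges. Tlr13, Tlr5, Tlr1 and Tlr7 followed with overlapping ranges at 3.29, 2.57, 2.53 and 2.14 TPM, and Tlr8 and Tlr4 came last at 1.12 and 0.885 TPM, Tlr8 overlapping both Tlr7 and Tlr4.

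The genotype differences were seen in both sexes. In males 9 of the 10 genes were higher as deposited (43.3% of tested genes), all but Tlr5, and in females 8 (29.1%), all but Tlr5 and Ly96. After rescaling 6 were higher in males (14.1%) and 5 in females (15.4%), and Tlr5 was lower in females (limma, adjusted p = 0.0463; 10.6% of tested genes). Cd14, Tlr1, Tlr2, Tlr7 and Tlr13 passed in each sex on both scales. The male call for Ly96 (0.94, adjusted p = 0.0476) was lost in 11 of 19 alternatives. It was 0.46 after rescaling (adjusted p = 0.360) and 0.55 without WT male replicate 2 (adjusted p = 0.203), and it also failed without any 1 of the KO males or the WT females. Calls within 1 sex for Lbp, Tlr4 and Tlr8 also moved across the threshold when single libraries were left out.

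No difference between the sexes passed for any of the 10 genes. The interaction of genotype and sex passed for 0 of 10 (limma; 0.912% of tested genes), with 0 of 10 at an unadjusted p under 0.05 and 0 of 10 by limma-voom (0.579% of tested genes). Male minus female effects ranged from 0.69 (SE 0.506) for Ly96 and 0.67 (SE 0.488) for Cd14 to -0.24 (SE 0.209) for Tlr7. Male minus female differences passed for 0 of 10 within WT (5.74% of tested genes) and 0 of 10 within KO (0.0814%), again with 0 of 10 at an unadjusted p under 0.05. The lowest p was that of Tlr1 in WT, 0.156 unadjusted, for a difference of -0.31 (SE 0.208; limma, adjusted p = 0.354). With 3 mice a group, differences of about the size of these errors could not be resolved.

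Tlr3, Tlr6, Tlr9, Tlr11 and Tlr12 complete the receptor family in the table. The summed level of the 12 receptor genes was 9.03 to 17.6 TPM in the WT livers and 26.6 to 36.9 TPM in the KO livers, and 10.9 to 19.0 against 24.1 to 29.0 after rescaling. Within that sum Tlr5 made up 24.9% ± 2.28 in WT and 8.24% ± 2.08 in KO (SD, n = 6). The share of Tlr2 was 10.3% ± 6.19 in WT and 21.2% ± 3.51 in KO, and that of Tlr13 was 3.27% ± 1.22 and 10.7% ± 1.97. Tlr1 went from 2.59% ± 1.07 to 8.04% ± 2.01, Tlr7 from 2.93% ± 1.52 to 7.00% ± 1.31, while Tlr4 held 2.54% ± 0.741 and 2.84% ± 0.555. Tlr12 had the largest mean share in WT at 32.4% ± 7.81 and made up 19.5% ± 2.04 in KO. In WT male replicate 2, however, Tlr12 made up 19.5%, below Tlr5 at 28.1% and Tlr2 at 21.7%. That Tlr2 share lay within the KO range of 18.1% to 26.9%. Tlr3 made up 15.6% ± 0.853 in WT and 13.8% ± 2.67 in KO. Tlr3, the sensor of double-stranded RNA, was higher by 0.77 (limma, adjusted p = 0.00201; 0.44 and adjusted p = 0.0298 after rescaling), and an annotated antisense gene overlaps it. Tlr12 stood at 2.38 to 6.10 TPM in WT and 4.92 to 7.11 TPM in KO and did not pass (0.43, adjusted p = 0.0515; 0.0579 and adjusted p = 0.789 after rescaling), and Tlr9 and Tlr11 were under the minimum, Tlr9 at 0 to 0.271 TPM in WT and 0.308 to 0.726 TPM in KO.

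**Figure D3:**
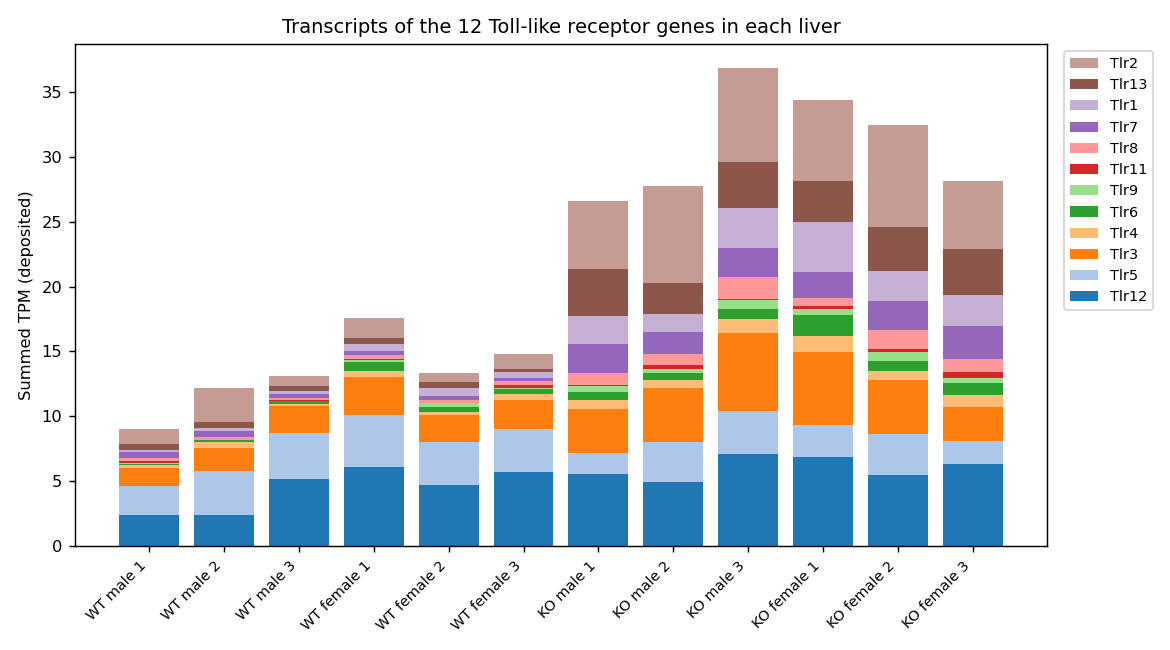
Stacked deposited TPM of the 12 Toll-like receptor genes (vertical axis) in each of the 12 livers. The WT bars reach 9.03 to 17.6 TPM and the KO bars 26.6 to 36.9 TPM. The Tlr5 layer has the lower mean in KO (2.57 against 3.30 TPM). The Tlr2 layer is taller in every KO liver than in any WT liver, as 28.7% of tested genes are higher without overlap.

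Markers of monocytes, macrophages and Kupffer cells moved with these genes. In bulk tissue, more cells of a type and more RNA per cell cannot be told apart. All 8 monocyte and macrophage markers were higher in KO on both TPM scales, and their summed level was 35.9 to 115 TPM in WT and 263 to 547.5 TPM in KO; Lyz2 and Csf1r led the list, and Ly6c2 was listed at 0 in 1 WT liver. Of 7 Kupffer cell markers 6 were higher (5 higher and Cd163 lower after rescaling), with sums of 105 to 269 TPM in WT and 457 to 763 TPM in KO, led by C6 and Cd5l. Without C6, a list trimmed after its values were seen, these sums were 61.4 to 205 and 261 to 541 TPM. Of the neutrophil markers 3 of 4 tested were higher and 1 of 4 after rescaling, where 50.1% and 21.3% of all tested genes were higher. This list was led by S100a9 and S100a8, with overlapping sums of 0.218 to 20.2 TPM in WT and 12.2 to 45.8 TPM in KO; Ly6g was listed at 0 in 10 livers and Mpo in 4. The part of these cells in the results was not tested.

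Of 6 sinusoidal endothelial markers 0 were higher and 2 lower on both TPM scales, where 50.1% of tested genes were higher and 4.82% lower as deposited, and 21.3% and 18.0% after rescaling. Their sums overlapped, with values of 44.3 to 69.2 TPM in WT and 23.8 to 97.1 TPM in KO. The dendritic cell sums were 0.822 to 2.63 and 2.32 to 5.06 TPM, the B cell sums 0.925 to 5.63 and 1.70 to 4.11 TPM, and the T and natural killer cell sums 0.962 to 3.40 and 0.891 to 4.51 TPM. Stellate cell markers summed to 14.0 to 29.5 TPM in WT and 15.7 to 43.2 TPM in KO. Bile duct markers summed to 27.7 to 58.5 and 252 to 713 TPM, almost wholly Spp1, and Epcam was lower. The hepatocyte markers, led by Alb and Apoa1, summed to 73799 to 101564 TPM in WT and 55659 to 81052 TPM in KO, as in a liver sample.

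Each gene was also set against the summed monocyte and macrophage markers of the same library. That sum rose more than most genes did, and on this ratio every KO liver lay below every WT liver for 76.1% of tested genes and above it for 0.937%. Cd14 over the sum was 0.0263 to 0.118 in WT and 0.199 to 0.511 in KO without overlap, its median 8.70 times higher in KO. Tlr4, Lbp, Ly96 and Tlr5 were lower in every KO liver than in every WT liver, as most tested genes were, with WT medians 2.19, 3.09, 3.34 and 7.29 times those of KO. For Tlr1, Tlr2, Tlr7, Tlr8 and Tlr13 the ratios overlapped over both sexes together. The sum itself was 35.9 to 42.9 TPM in the WT males and 61.5 to 115 TPM in the WT females, and within a sex these ratios did not all move alike. Tlr7 over the sum was 0.00759 to 0.0132 in WT males and lower, at 0.00534 to 0.00669, in every KO male, as were 89.3% of tested genes in males, whereas in females its median went from 0.00325 to 0.00652 with overlap. The medians of Tlr13 went from 0.0110 to 0.00885 in males and from 0.00416 to 0.00924 in females, those of Tlr1 from 0.00602 to 0.00515 and from 0.00531 to 0.00698. The medians of Tlr8 were lower in KO in both sexes.

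Against the Kupffer cell sum, on which 42.2% of tested genes were lower and 1.62% higher without overlap, Cd14 was again higher, at 0.00507 to 0.0304 in WT and 0.167 to 0.280 in KO, and Tlr5 again lower in every KO liver. Tlr7 was higher without overlap too, at 0.00146 to 0.00248 in WT and 0.00290 to 0.00548 in KO, and the other 7 genes overlapped. C6 made up most of this sum in WT males, at 166 ± 36.0 TPM (SD, n = 3), and was 8.73 ± 0.659 TPM in WT females (SD, n = 3). Without C6, an alternative chosen after seeing the data on which 41.8% of tested genes were lower and 1.51% higher, Tlr7 overlapped, at 0.00179 to 0.00809 in WT and 0.00374 to 0.00839 in KO. Cd14 at 0.0168 to 0.0808 against 0.256 to 0.532, and Tlr5 at 0.0194 to 0.0558 against 0.00460 to 0.0119, remained without overlap. Values like those of Tlr5, lower without overlap, were common among tested genes on each sum. These ratios have no test, Lyz2 made up most of the monocyte and macrophage sum, and the receptors below 1 TPM rest on few reads.

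**Figure D4:**
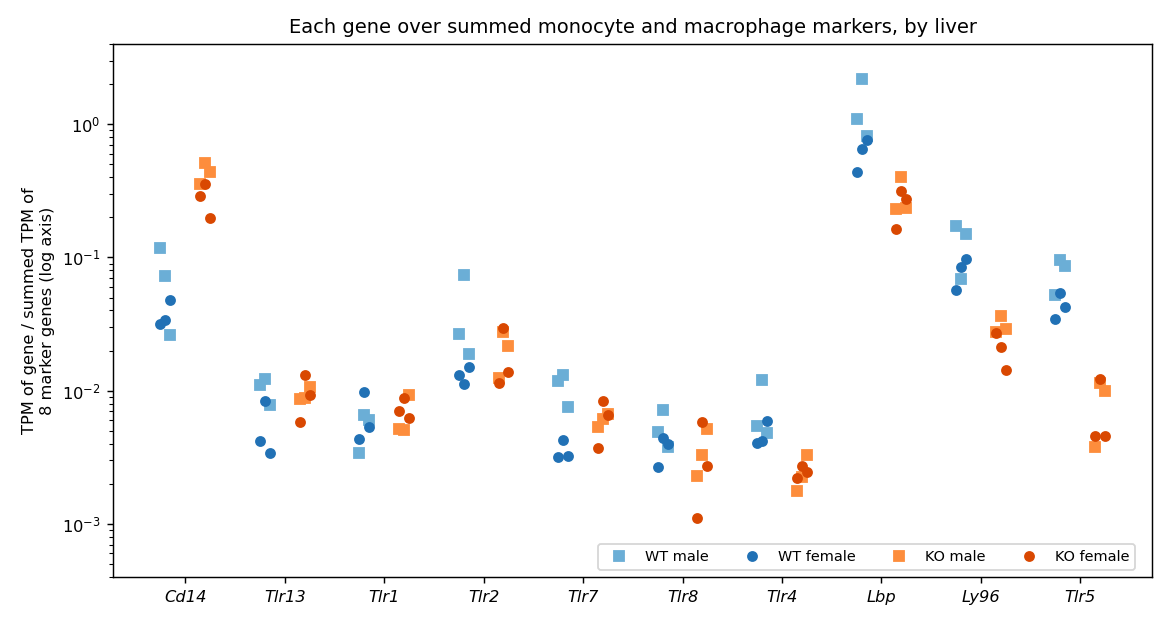
TPM of each of the 10 genes divided by the summed TPM of 8 monocyte and macrophage markers in the same liver (vertical log axis); each point is 1 mouse. Cd14 is higher in all KO livers (0.199 to 0.511 against 0.0263 to 0.118), and Tlr4, Lbp, Ly96 and Tlr5 are lower in all KO livers, as 76.1% of tested genes are on this ratio. Tlr1, Tlr2, Tlr7, Tlr8 and Tlr13 overlap over both sexes together.

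The rest of the pathway was followed in the other Toll-like receptors above, of which 2 of 3 tested were higher on both TPM scales, and in 6 further lists. Tlr6, 1 of those 2, reached the 0.5 TPM minimum through the KO livers (mean 0.298 TPM in WT and 0.859 TPM in KO), so this count supports no test. The counts of all these lists stand against 50.1% of all tested genes higher and 4.82% lower as deposited, and 21.3% and 18.0% after rescaling. In parentheses the deposited log2(TPM + 1) difference, which passed the limma test, comes first and the rescaled one second. Of 8 accessory proteins, which fold, traffic or pair with the receptors, 6 were higher and 0 lower, and 5 and 1 after rescaling. They included Cd36, a scavenger receptor that works with TLR2 (2.79 and 2.36), Ly86 (1.87 and 1.49) and Cd180 (0.85 and 0.66), a pair that resembles MD-2 and TLR4, and Unc93b1, which escorts the endosomal receptors (1.11 and 0.66). Of 17 adaptors, kinases and ligases 12 were higher and 1 lower, but 4 and 2 after rescaling, near the share of all genes, with a rescaled median of 0.10 against -0.03 for all genes. Ikbke (1.13 and 0.70), Irak4 (1.12 and 0.73) and Tab2 (1.00 and 0.56) kept their call after rescaling and Traf3 (0.94 and 0.55; rescaled adjusted p = 0.0689) did not. Of 8 transcription factors 6 were higher and 0 lower (4 and 1 after rescaling), among them Relb (2.20 and 1.87), Nfkb2 (1.97 and 1.58), Irf7 (1.31 and 0.87) and Rela (0.86 and 0.41).

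Inhibitors and outputs of the pathway were followed in the same way, against the same shares of 50.1% and 4.82% as deposited and 21.3% and 18.0% after rescaling. Of 8 inhibitors 6 were higher and 0 lower, and 3 and 1 after rescaling. Tnfaip3 (2.44 and 2.11) and Tnip1 (2.14 and 1.73), which restrain ubiquitin-dependent NF-kB signalling, and Irak3 (2.42 and 2.15), a kinase-like brake on IRAK signalling, passed on both scales. Dusp1 (1.74 and 1.29), a phosphatase of MAP kinases, did not pass after rescaling (adjusted p = 0.0671). Of 7 genes of lipopolysaccharide and peptidoglycan handling 6 were higher and 0 lower on both TPM scales. They were led by Marco (3.49 and 3.10) and Msr1 (1.50 and 1.12), macrophage scavenger receptors, Pglyrp2 (1.42 and 0.97), an amidase that cuts peptidoglycan, and Casp4 (1.41 and 1.20), a sensor of cytosolic lipopolysaccharide. Of 11 transcripts known to be induced by lipopolysaccharide 9 were higher and 0 lower, and 5 and 0 after rescaling. Ccl2 (2.65 and 2.34) and Icam1 (2.16 and 1.74) kept their call, whereas Saa2 (2.52 and 2.06; rescaled adjusted p = 0.0575) and Saa1 (2.08 and 1.63; rescaled adjusted p = 0.0816), liver acute phase proteins, did not.

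**Figure D5:**
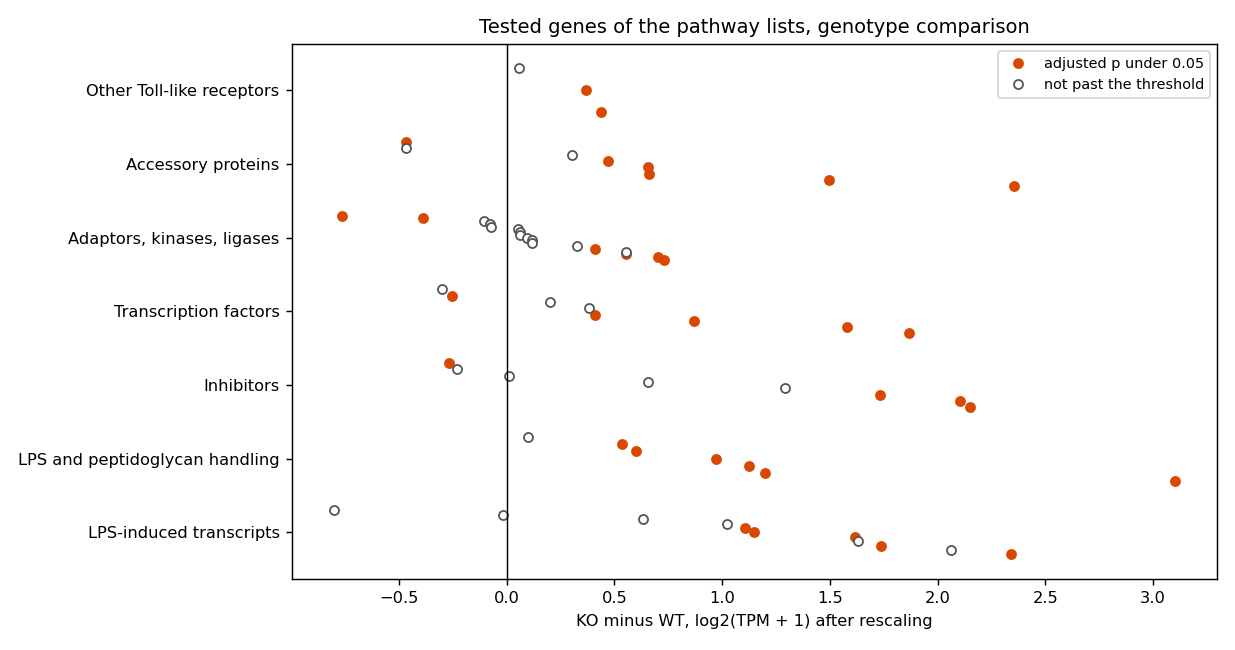
Rescaled KO minus WT differences (horizontal axis, log2(TPM + 1)) of the tested genes of 7 pathway lists, 1 point a gene; filled points passed the limma threshold after rescaling. Most adaptors, kinases and ligases lie near 0, and Marco, at 3.10, is the point farthest to the right.

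The genes most like each member in log2(TPM + 1) over the 12 livers were also looked up. These correlations share the split between genotypes and the library scaling, so they describe and carry no p. Cd14 was most like Anxa2, a calcium- and phospholipid-binding annexin (r = 0.9935), Plscr1 (0.9920) and Tmem71 (0.9917). Tlr7 and Tlr13 were each most like the other (0.9926), Tlr1 was most like the complement receptor gene C3ar1 (0.9888), Tlr2 like Hunk (0.9796), Tlr4 like Adam15 (0.9809) and Tlr8 like Ddx24 (0.9842). With the mean of each of the 4 groups removed, the correlation of Cd14 was 0.8882 with Anxa2, 0.7575 with Plscr1 and 0.6481 with Tmem71, and it was 0.8411 for Tlr7 with Tlr13 and 0.8781 for Tlr1 with C3ar1. Ly96 was most like 1110004F10Rik (0.9308, and 0.9574 with group means removed), Lbp like Tmem176a (0.9270 and 0.8652) and Tlr5 like Cop1 (0.8765 and 0.8965).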

How the data were processed

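The authors deposited 1 table with a TPM column for each of the 12 mice, each summing to 1000000, and their own comparison of KO with WT (fold changes and FDR rounded to 2 decimals), per the file headers. The submitters' processing notes name GRCm38 and edgeR without a role; aligner, counter, annotation and use of strand are not given in the sources used here. All 12 columns matched 1 sample each.

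From these, log2(TPM + 1) was tested with limma 3.58.1 in R 4.3.3 (intensity trend, two-sided, Benjamini-Hochberg adjustment) for the 12278 genes whose mean reached 0.5 TPM. The genotype fit had sex as covariate, and the other 5 comparisons came from 1 model of the 4 group means. The test recovered 91 of 100 simulated log2 changes of 1 and 98 of 100 of 2 in the genotype comparison. Alternatives were a pseudocount of 0.1, other minimums, rescaling by median-of-ratios factors, removal of the 20 most abundant genes, no trend, other covariates, and each library left out. Whole reads were recovered from the TPM steps for 12273 tested genes (99.959%, within 0.02 of a whole number) and tested with limma-voom, which was added after seeing the data.

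Gene positions came from GENCODE mouse release 21, in which no other annotated gene overlaps the 10 genes. The genes and lists were chosen with earlier results of these data known. The text names the 10 genes, the other Toll-like receptors, up to 4 genes a pathway list by size of difference, pathway genes past the interaction threshold, up to 2 genes a marker list by mean level, and the genes most like each of the 10 (up to 3 each). Of 141 listed names 140 were in the table.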

Additional observations from a re-analysis of the deposited data

Results flagged for a closer look

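The genotype effect differed between the sexes for 2 listed genes, by the interaction term of the limma model (male minus female effect). Cd36, the scavenger receptor on the accessory list, stood at 8.88 ± 2.31 TPM in WT males and 112 ± 8.04 in KO males, and at 22.0 ± 6.87 in WT females and 90.7 ± 0.787 in KO females (SD, n = 3). Its interaction was 1.50 (limma, adjusted p = 0.0485), and 1.30 after rescaling, where it did not pass (adjusted p = 0.187). C6, a complement component on the Kupffer cell list, stood at 166 ± 36.0 TPM in WT males and 247 ± 57.8 in KO males, and at 8.73 ± 0.659 in WT females and 159 ± 1.39 in KO females (SD, n = 3). Its interaction was -3.48, and -3.71 after rescaling, and it passed on both scales.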

How the results depend on the processing

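No paired analysis was possible because the labels give the mice no replicate numbers, litters or pairs. Over both sexes, the calls of Cd14, Tlr1, Tlr2, Tlr4, Tlr7, Tlr8 and Tlr13 passed in every alternative in which the gene was tested (Tlr4 and Tlr8 fall below a minimum of 1 TPM), and Yap1 kept its fall. Rescaling or recovered reads ended the call of Lbp (0.45 and 0.46) and brought Tlr5 past the threshold (-0.62 and -0.85), and Ly96 passed (0.59) with a covariate for the 2 mice whose animal codes in the titles are far below the others, 1 WT and 1 KO female, a grouping inferred from those codes that the labels do not name as a batch. Of all called genes 6153 were higher and 592 lower as deposited, and 2612 and 2208 after rescaling. The gene count in males went from 5663 to 2937 after rescaling and 2834 with recovered reads, that of the interaction from 112 to 71 with recovered reads, and that of the sex difference in KO from 10 to 6. With each library left out, counts were 6220 to 6845 for both sexes, 4436 to 5627 in males, 3092 to 4536 in females, 75 to 176 for the interaction (176 without WT male replicate 3), 290 to 1696 for sex in WT (1696 without WT male replicate 3) and 6 to 10 for sex in KO.

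Signs turned only where nothing passed. Ly96 in females went from 0.25 to -0.0524 after rescaling, -0.0390 with recovered reads and -0.18 to 0.47 with libraries left out, and Tlr5 in males ranged from -0.32 to 0.0656. The Lbp interaction was -0.21 after rescaling, -0.0137 without the 20 most abundant genes and -0.22 with recovered reads, and -0.28 to 0.33 with libraries left out; that of Tlr4 was -0.0458 after rescaling and -0.11 to 0.0923, of Tlr1 -0.16 to 0.23, of Tlr2 -0.38 to 0.14 and of Tlr13 -0.16 to 0.0631. The sex difference in WT for Tlr13 was 0.0082 with a pseudocount of 0.1, 0.0702 after rescaling, 0.25 with recovered reads and -0.0841 to 0.0456 with libraries left out, for Cd14 -0.58 to 0.19, Lbp -0.31 to 0.30, Ly96 -0.58 to 0.0557 and Tlr2 -0.10 to 0.42. In KO it was -0.0023 for Lbp without the 20 most abundant genes and -0.0875 to 0.15 with libraries left out, for Tlr2 -0.0744 to 0.18, Tlr5 -0.10 to 0.29, Tlr8 -0.0769 to 0.25 and Tlr13 -0.16 to 0.0601. The cause was not tested.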
